A study of Mus musculus with 6 samples.

Results

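The transcription factor p53, encoded by Trp53, and 9 genes at the core of its network were examined in mouse embryonic fibroblasts (MEFs) with and without the mitochondrial protease YME1L. The set was fixed as a list of symbols (Trp53, Mdm2, Mdm4, Cdkn1a, Ccng1, Zmat3, Phlda3, Aen, Sesn1 and Ddb2), and all 10 genes were found among the 51499 loci of the count table, each as a locus of its own. Poly(A)-selected RNA from 6 cultures was sequenced, 3 WT and 3 Yme1l-/-, and the libraries held 33180867 to 49351107 counted fragments. Both genotypes descend from MEFs of animals with floxed Yme1l alleles (Yme1l fl/fl) that were immortalized with SV40 large T antigen, and WT cells still carry the unrecombined floxed alleles. By the study's account, Yme1l was removed with Cre, and the cells of both genotypes were propagated as clones and assigned by their genotype. Whether the 3 cultures of a genotype came from 1 clone is not given in the sources used here, so the tests measure the spread between cultures, and clone and genotype cannot be told apart. No batch is named in the labels.

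In unstressed cells p53 is kept scarce by MDM2, a ubiquitin ligase that marks it for degradation, and is held inactive by the related protein MDM4. Mdm2 is itself a p53 target, which closes a feedback loop. Damage signals free p53, mostly through its protein rather than its mRNA, and it then switches on genes that arrest the cell cycle, repair DNA or promote apoptosis. SV40 large T antigen binds p53 and blocks its activity, which helps fibroblasts that carry it to keep dividing. The level of the Trp53 transcript is therefore no measure of p53 activity, whereas transcripts of its targets are commonly read as one.

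The element that p53 binds consists of a pair of 10-base units, each with 3 purines, a C, 2 bases that are A or T, a G and 3 pyrimidines, and it reads the same on both strands. RefSeq promoter windows (GRCm38.p6, 250 bases before to 50 bases after each annotated start) were available for 8 of the genes, 12 windows in all. Zmat3 and Ddb2 had none. A 10-base unit without mismatch was found in windows of 6 genes (Aen, Sesn1, Mdm2, Ccng1, Trp53 and Cdkn1a), against 9.55% of the 27025 genes with a window. A 20-base pair of units with at most 1 mismatch, a limit chosen after the sequences were seen, was found in 2 of the genes, Cdkn1a and Ccng1, and in 0.107% of all genes with a window. Both are shown 5′ to 3′ on the strand of the gene, with the 20-base match in capitals. They are given because these members lay furthest below the median of their chromosome in Yme1l-/- MEFs. Without a reference, however, Ccng1 was at a log2 fold change of -0.02 and not called. A link between the sites and the fold changes was not tested. The Cdkn1a stretch is chr17:29090908-29090967 (plus strand), with the match starting at -51 relative to an annotated start, and the Ccng1 stretch is chr11:40755442-40755501 (minus strand), with the match starting at -195 relative to an annotated start. A match of letters is a description of the sequence and says nothing of binding in these cells.
Cdkn1a: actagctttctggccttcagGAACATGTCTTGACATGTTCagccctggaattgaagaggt
Ccng1: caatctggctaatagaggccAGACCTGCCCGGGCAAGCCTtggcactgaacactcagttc

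Loss of the targeted transcript was checked before the p53 genes. Yme1l1, as the table names it, had 191.1, 192.2 and 182.8 CPM (counts scaled to the library size after TMM normalization) in WT and 37.9, 38.9 and 40.6 CPM in Yme1l-/- MEFs. This is a log2 fold change, Yme1l-/- over WT throughout, of -2.27 ± 0.05 (SE), in the direction given by the labels. Fibroblast markers were abundant in both genotypes but shifted between them, with a summed level of 10838 to 11401 CPM in WT and 6646 to 7133 CPM in Yme1l-/- libraries over the 8 markers. Of the 7 tested, 1 was called higher and 5 lower in Yme1l-/- MEFs, against 33.6% and 34.1% of all loci. The lower ones were Col3a1 (-2.48), Vim (-1.33), Fn1 (-0.999), Col1a2 (-0.68) and Pdgfrb (-0.33). Col1a1 was at 0.43, and Pdgfra at -0.38 was not called (log2 fold changes). Thy1 had 4 to 6 fragments in WT and 0 in Yme1l-/- libraries. WT replicate 2 held 9860 fragments of Col3a1 against 2858 and 2974 in the other WT libraries, and without it the log2 fold change was -1.63. Its call was lost when any Yme1l-/- replicate was left out, with edgeR adjusted p-values of 0.0855 to 0.0917, and that of Kdr without WT replicate 3 (0.052) or Yme1l-/- replicate 2 (0.062). Of 16 markers of other cell types 15 were found, with summed levels of only 4.78 to 5.35 CPM in WT and 7.80 to 9.13 CPM in Yme1l-/- libraries, and Adgre1 was at 0 in all 6. The 4 that passed the filter were Epcam (-3.83), Kdr (0.72), Cd68 (1.04) and Des (2.60, log2 fold changes). The part of these marker shifts in the p53 results was not tested, and in bulk RNA fewer cells of a type and less RNA per cell cannot be told apart.

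Without a reference, 4 of the 10 p53 genes were called different between the genotypes. Trp53 itself rose to 1.67 times its WT level, Sesn1 to 1.48 times and Ddb2 to 1.24 times, Cdkn1a fell to 87.4% of WT, and for 6 of the genes no difference was detected. These calls are from edgeR's quasi-likelihood test with an adjusted p under 0.05 over the 13867 loci tested. By that measure 67.7% of all loci were called, 33.6% higher and 34.1% lower, against 3 higher and 1 lower of the 10 genes here. The 3 libraries of each genotype did not overlap for 4 of the 10 genes, against 71.9% of all loci. The median absolute log2 fold change was 0.09 for the set and 0.38 for all loci, and the levels of 6 genes in Yme1l-/- MEFs were within 10% of WT. The values of each library are shown in the plot of CPM by gene.

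**Figure D1:**
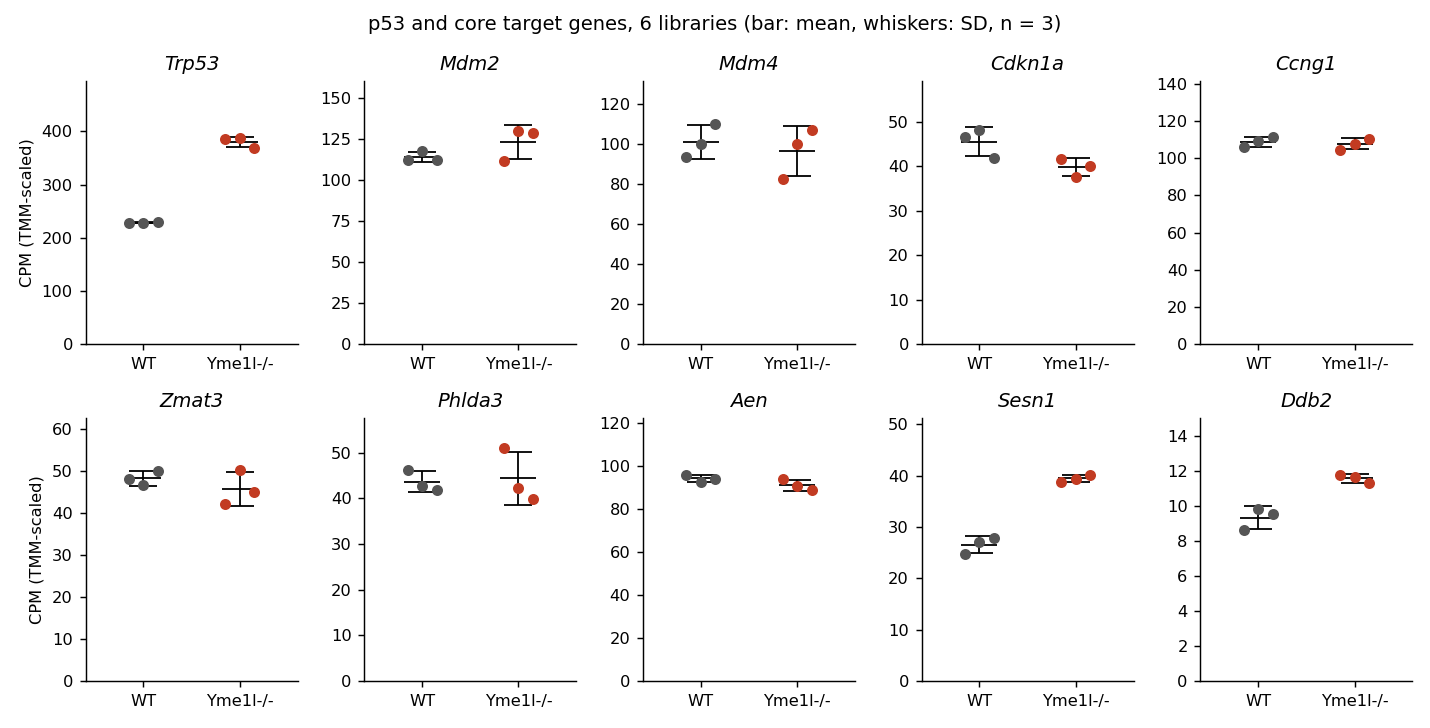
CPM of the 10 genes in each library (y axes start at 0, grey: WT, red: Yme1l-/-, bar and whiskers: mean and SD of 3 cultures). Trp53, Sesn1 and Ddb2 lie higher in all Yme1l-/- libraries, Cdkn1a lies slightly lower in all of them, and the libraries of the other 6 genes overlap.

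Trp53 had 228.2, 227.6 and 228.8 CPM in WT and 385.2, 386.8 and 368.9 CPM in Yme1l-/- libraries. It was the most uniform gene of the set in WT, with a coefficient of variation of 0.26%, and every Yme1l-/- library lay far above every WT library. This gave a log2 fold change of 0.74 ± 0.04 (SE, edgeR adjusted p = 3.3e-08). The authors' combined values per genotype were 136 FPKM in WT and 226 FPKM in Yme1l-/- MEFs. The pseudogene Trp53-ps had 0 counts in all 6 libraries.

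Neither inhibitor of p53 was called. Mdm2 had 112.3, 117.4 and 112.0 CPM in WT and 111.3, 129.96 and 128.6 CPM in Yme1l-/- libraries. Replicates 2 and 3 of Yme1l-/- lay above all WT libraries and replicate 1 lay below them, and the log2 fold change was 0.12 ± 0.06 (SE, edgeR adjusted p = 0.117). Without Yme1l-/- replicate 1 it was 0.18 and called (edgeR adjusted p = 0.00339). Mdm4 had 93.3, 99.9 and 110.2 CPM in WT and 82.6, 99.9 and 107.0 CPM in Yme1l-/- libraries, which overlapped over most of their range. Its log2 fold change of -0.07 ± 0.10 (SE) had the largest SE of the set, and Mdm4-ps had at most 1 count per library. The short transcript Gm29257 lies within Mdm4 on the opposite strand and had 23 to 49 counts per library, few beside the 2891 to 5452 counts of Mdm4.

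Cdkn1a encodes p21, the cyclin-dependent kinase inhibitor through which p53 arrests the cell cycle. It had 46.6, 48.1 and 42.0 CPM in WT and 41.7, 37.6 and 40.2 CPM in Yme1l-/- libraries. The Yme1l-/- libraries were lower, but WT replicate 3 and Yme1l-/- replicate 1 differed by less than 1 CPM. This corresponds to a log2 fold change of -0.19 ± 0.06 (SE, edgeR adjusted p = 0.0176). This call was lost without WT replicate 2 (-0.16), without Yme1l-/- replicate 2 (-0.15) and under upper-quartile scaling (-0.13), with edgeR adjusted p-values of 0.0797, 0.0852 and 0.0789. An antisense gene, AC167363.2, overlaps Cdkn1a over 1046 bases and is not listed among the counted loci. Its part in the counts of Cdkn1a was not tested.

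For the other cell cycle and apoptosis targets no difference was called. Ccng1, which encodes cyclin G1 and is among the strongest p53 targets in mouse cells, had 106.1, 109.0 and 111.2 CPM in WT and 104.6, 107.7 and 110.5 CPM in Yme1l-/- libraries, with a log2 fold change of -0.02 ± 0.04 (SE). Its libraries overlapped almost fully. Phlda3, an inhibitor of AKT signalling, had 46.3, 42.8 and 41.9 CPM in WT and 51.01, 42.3 and 39.8 CPM in Yme1l-/- libraries, so that Yme1l-/- held both the highest and the lowest value. Aen, which encodes an apoptosis-enhancing nuclease, had 95.8, 92.6 and 93.8 CPM in WT and 93.8, 90.6 and 88.7 CPM in Yme1l-/- libraries. Zmat3, which encodes an RNA-binding zinc finger protein, had 48.1, 46.6 and 50.1 CPM in WT and 42.2, 50.2 and 45.0 CPM in Yme1l-/- libraries. The log2 fold changes of Phlda3, Aen and Zmat3 were 0.02 ± 0.09, -0.05 ± 0.04 and -0.07 ± 0.07 (SE), and none was called.

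The stress and repair targets Sesn1 and Ddb2 were both higher in Yme1l-/- MEFs. Sesn1 encodes a sestrin, a stress protein that restrains mTORC1 signalling, and it had 24.8, 27.1 and 27.9 CPM in WT and 38.7, 39.4 and 40.2 CPM in Yme1l-/- libraries. The genotypes were separated by a wide gap, at a log2 fold change of 0.57 ± 0.06 (SE, edgeR adjusted p = 5.0e-06). Ddb2, which encodes a subunit of the complex that recognizes ultraviolet damage in DNA, had the lowest CPM of the set, without correction for length. Its values were 8.61, 9.87 and 9.56 CPM in WT and 11.8, 11.7 and 11.3 CPM in Yme1l-/- libraries. The groups did not overlap, and Ddb2 differed by 0.31 ± 0.09 on the log2 scale (SE, edgeR adjusted p = 0.00745). Ddb2 overlaps the antisense gene Acp2 over 2527 bases, and the table gives both the same interval. Acp2 was also called higher, by 0.28 ± 0.05 on the log2 scale (SE), and with 1572 to 1645 counts per WT library it outweighed the 285 to 323 counts of Ddb2. Whether counting used the strand is not stated, so fragments of the shared stretch cannot be assigned with certainty.

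Levels of the genes were compared with each other per kilobase of annotated exon. In WT the order was Trp53 (56.4 ± 0.15 CPM per kb, SD, n = 3), Ccng1 (30.97 ± 0.73), Phlda3 (28.0 ± 1.5), Mdm2 (22.4 ± 0.59), Aen (16.2 ± 0.27), Cdkn1a (12.8 ± 0.90), Mdm4 (6.83 ± 0.57), Sesn1 (6.68 ± 0.41), Zmat3 (4.22 ± 0.15) and Ddb2 (3.42 ± 0.24 CPM per kb). Libraries of Mdm4 and Sesn1 overlapped and those of all other neighbours in this order lay apart. In Yme1l-/- MEFs Trp53 stood at 94.0 ± 2.44 CPM per kb, Sesn1 passed Mdm4, at 9.91 ± 0.19 against 6.52 ± 0.85, and Ddb2 passed Zmat3, at 4.23 ± 0.09 against 4.01 ± 0.35 with overlapping libraries. Libraries of Phlda3 then overlapped with those of both Ccng1 and Mdm2, its neighbours in the order. In the authors' FPKM, which rest on assembled transcripts instead, Mdm2 and Aen came directly after Trp53, ahead of Phlda3 and Ccng1, so the order in the middle of the set differed between these measures.

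Whole chromosomes differed between the genotypes, so each gene was next set against the median of its chromosome. Of 20 chromosomes, chromosome 11 (Trp53, Ccng1) had a median log2 fold change of 0.36, chromosome 10 (Mdm2, Sesn1) of 0.30 and chromosome 17 (Cdkn1a) of 0.17. Medians were -0.02 for chromosome 2 (Ddb2), -0.01 for chromosome 7 (Aen), -0.12 for chromosome 3 (Zmat3) and -0.15 for chromosome 1 (Mdm4, Phlda3). Each Yme1l-/- library gave nearly the same chromosome medians, for instance 0.374, 0.346 and 0.352 for chromosome 11. When the medians were taken as the reference, 62.9% of loci were called, and of the p53 genes 3 were higher and 3 were lower.

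**Figure D2:**
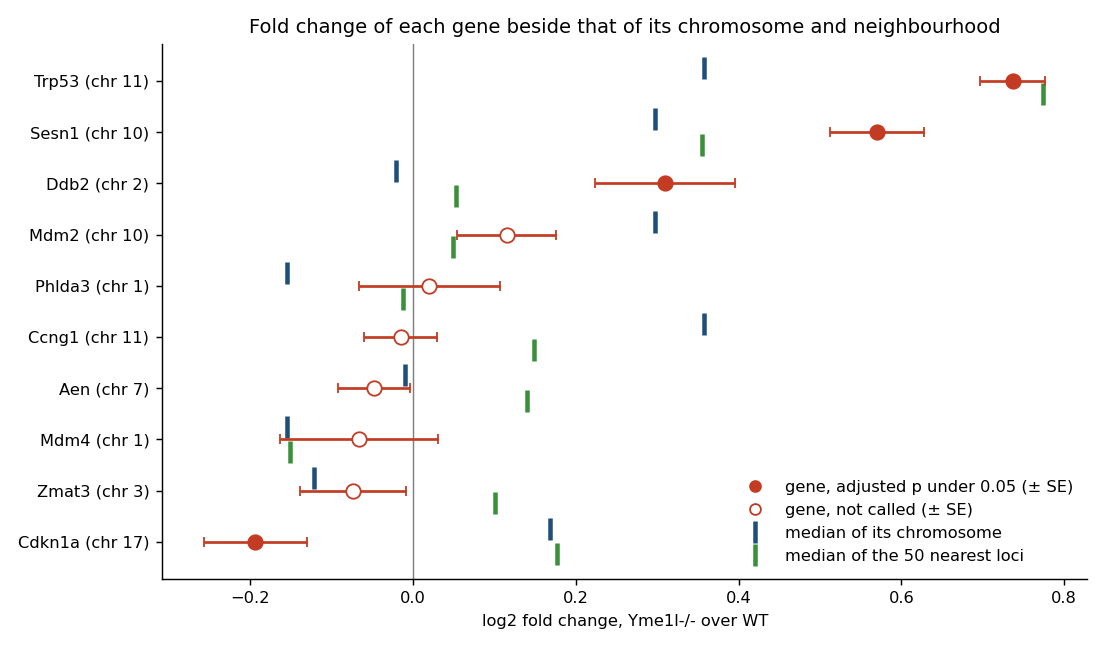
Log2 fold change of each gene (red, ± SE, filled where the adjusted p was under 0.05) beside the median of its chromosome (blue) and of the 50 nearest tested loci (green). Trp53 at 0.74 coincides with its 50 neighbours at 0.77, whereas Cdkn1a at -0.19 lies below both of its references.

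Relative to the chromosome median, the targets Ccng1 and Cdkn1a were the lowest of the set. Ccng1 was at -0.37 ± 0.04 and Cdkn1a at -0.36 ± 0.06 (SE), with edgeR adjusted p-values of 2.5e-05 and 0.000423, and levels of 77.3% and 77.8% of what their chromosomes showed. Mdm2 was at -0.18 ± 0.06 (SE, edgeR adjusted p = 0.0222), a call that was lost without WT replicate 2 (adjusted p = 0.0752). Trp53 (0.38 ± 0.04), Ddb2 (0.33 ± 0.09) and Sesn1 (0.27 ± 0.06, SE) were higher. Phlda3 (0.17), Mdm4 (0.09), Zmat3 (0.05) and Aen (-0.04, relative log2 fold change) were not called. Phlda3 was called without Yme1l-/- replicate 3, at 0.24 (edgeR adjusted p = 0.027), and Mdm4 without Yme1l-/- replicate 1, at 0.19 (edgeR adjusted p = 0.0304). These tests treat the chromosome median as known without error.

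The fold change was not even along chromosome 11, and this bore on Trp53. In windows of 10 Mb the median was 0.60 between 50 and 60 Mb and 0.62 between 60 and 70 Mb, where 93 of 118 loci were called higher, but 0.26 between 40 and 50 Mb and 0.20 between 100 and 110 Mb. Trp53 lies at 69580359 to 69591873 and Ccng1 at 40748552 to 40755311 (mm10). The 50 tested loci nearest to Trp53, which span 1.09 Mb, had a median of 0.77 (interquartile range 0.58 to 1.08). Of these, 42 were called higher and 4 lower, against 33.6% and 34.1% of all loci, and 26 had a larger log2 fold change than Trp53.

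**Figure D3:**
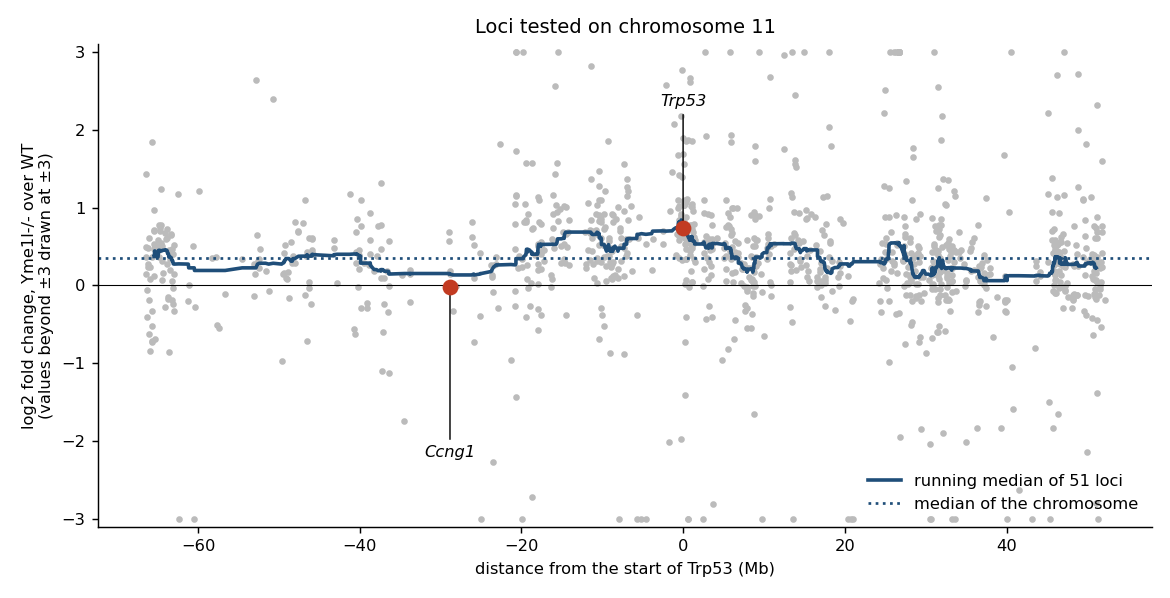
Log2 fold change of the 1112 tested loci of chromosome 11 by distance from the start of Trp53 in Mb (grey points, blue line: running median of 51 loci, dotted line: chromosome median of 0.36). Trp53 at 0.74 sits on the running median, and Ccng1 at -0.02 sits below it.

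The loci next to Trp53 moved with it. All 10 of the nearest tested loci, 5 on each side and chosen by position alone, were called higher, and 9 of them had a larger log2 fold change than Trp53. Wrap53, its head-to-head neighbour, rose from 23.5, 24.3 and 24.6 to 40.8, 43.1 and 42.7 CPM (log2 fold change 0.81 ± 0.05, SE). Fxr2, 52.6 kb away and well expressed, was at 0.81 ± 0.04, and Mpdu1, 74.96 kb away, was at 1.04 ± 0.06 (SE). The histone demethylase gene Kdm6b, at 0.33 ± 0.04 (SE), was the lowest of the 10. Cd68, a leukocyte gene and among the markers of other cell types given above, is also one of these loci, 83.9 kb from Trp53. Around Ccng1, 6 of the 10 nearest loci were called higher and 2 lower, with values from -0.33 to 0.82. Over all loci, 33.6% were called higher and 34.1% lower. Of the loci in the 10 Mb windows that hold these genes, 93 of 118 (Trp53) and 24 of 44 (Ccng1) were called higher.

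With the median of the 50 nearest loci as the reference, 62.1% of all loci were called, and of the p53 genes 2 were higher and 4 were lower. These windows were set by number of loci, so their spans differed. They covered 1.09 Mb for Trp53 and 4.48 to 10.6 Mb for Mdm4, Cdkn1a, Ddb2, Phlda3 and Mdm2. For Aen, Sesn1, Zmat3 and Ccng1 they covered 13.1 to 17.5 Mb. Trp53 was at -0.04 ± 0.04 (SE, edgeR adjusted p = 0.439), so the call against the chromosome median was lost. Windows of 20 and 100 loci were added after the data were seen. Against the 20 nearest loci Trp53 was called lower, at -0.24 (edgeR adjusted p = 0.000305), and against the 100 nearest it was at 0.04 and not called. Mdm2 was at 0.07 and no longer called. Sesn1 (0.22 ± 0.06), Ddb2 (0.26 ± 0.09), Cdkn1a (-0.37 ± 0.06) and Ccng1 (-0.16 ± 0.04, SE) kept their calls and directions with 20, 50 and 100 nearest loci. Aen (-0.19) and Zmat3 (-0.17) were called lower with 50 nearest loci, with edgeR adjusted p-values of 0.0032 and 0.0367. Both were also called lower with 20, at -0.34 (edgeR adjusted p = 4.1e-05) and -0.17 (0.041), and neither was called with 100.

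**Figure D4:**
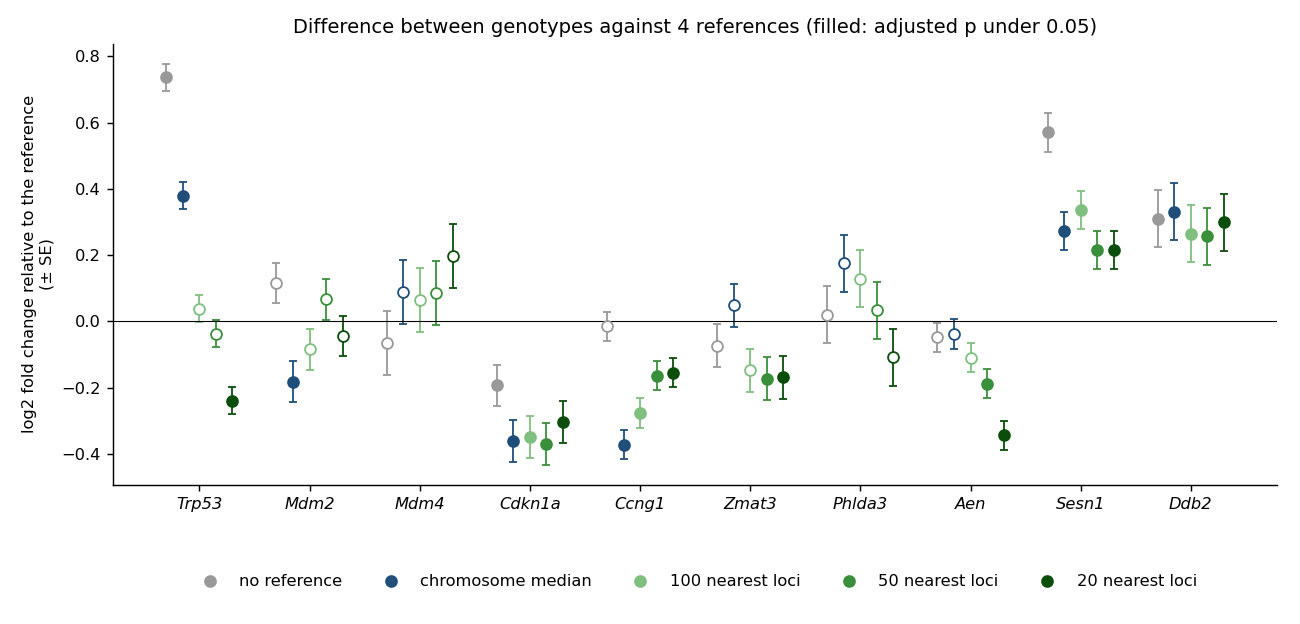
Difference between the genotypes for each gene without a reference and relative to 4 references (log2 scale, ± SE, filled where the adjusted p was under 0.05). Trp53 goes from 0.74 without a reference to -0.24 against its 20 nearest loci, while Cdkn1a and Ccng1 stay below 0 and Sesn1 and Ddb2 stay above 0 against each reference.

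Pairs of the set that share a chromosome were also compared within each library, where library scaling cancels. The ratio of Ccng1 to Trp53 counts was 0.465, 0.479 and 0.486 in WT and 0.272, 0.279 and 0.2996 in Yme1l-/- libraries. All 3 ratios were lower in Yme1l-/- MEFs, a difference of -0.75 on the log2 scale. The two-sided exact permutation p was 0.1, which is the smallest that 3 against 3 cultures allow. This ratio restates the fold changes of its 2 genes, and the 50 nearest loci had medians of 0.77 for Trp53 and 0.15 for Ccng1. Mdm2 to Sesn1 had ratios of 4.53, 4.33 and 4.01 in WT and 2.87, 3.30 and 3.20 in Yme1l-/- libraries, a log2 difference of -0.46 with an exact p of 0.1. Mdm4 to Phlda3, which lie 2.81 Mb apart on chromosome 1, had ratios from 2.02 to 2.63 in WT and from 1.62 to 2.69 in Yme1l-/- libraries, with an exact p of 0.9. Adjusted over the 3 ratios, the exact p-values were 0.15, 0.15 and 0.9, so none could pass the threshold in this design.

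Loci whose pattern was most like that of Trp53 or Cdkn1a were sought among 8486 loci with a single named gene and a mean of at least 10 CPM, by the root mean square difference of centred log2 CPM over the 6 libraries. For Trp53 these were Thoc5, Arhgap29 and Dapk3, with differences of 0.0130, 0.0244 and 0.0251. Thoc5 lies on chromosome 11, at -64.7 Mb from Trp53, Arhgap29 on chromosome 3 and Dapk3 on chromosome 10, and their log2 fold changes were 0.74, 0.70 and 0.74. For Cdkn1a they were Tor1a, Vbp1 and Zfp367, with differences of 0.0279, 0.0291 and 0.0319, on chromosomes 2, X and 13. Their log2 fold changes were -0.18, -0.21 and -0.22. Since the loci were chosen by these same values, similar fold changes follow from the choice for both genes and are no further result.

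Further targets of p53 went both ways. Of 30 in the list, all tested, 14 were higher and 5 were lower in Yme1l-/- MEFs (33.6% and 34.1% of all loci), with a median log2 fold change of 0.22 against 0.00 for all loci. At least 2-fold higher were the death receptor gene Fas (1.98), Cd82 (1.69), Gadd45a (1.37), Perp (1.09), Ak1 (1.07) and Sesn2 (1.02, log2 fold changes). Fas rose from 1.36 ± 0.07 to 5.38 ± 0.24 CPM, and Gadd45a, a stress sensor gene, from 7.78 ± 1.84 to 20.2 ± 1.79 CPM (SD, n = 3). Sesn2, the paralogue of Sesn1, rose from 20.9 ± 1.90 to 42.3 ± 1.39 CPM (SD, n = 3). The next in size were Rrm2b (0.89), which encodes a p53-induced ribonucleotide reductase subunit, Ephx1 (0.82) and Dgka (0.81). Against the chromosome median Rrm2b was at 0.29, Ephx1 at 0.97 and Dgka at 0.51, so their order depended on the reference.

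The 5 lower calls were led by Pmaip1. Pmaip1, which encodes NOXA, fell from 20.2 ± 2.58 to 4.71 ± 0.50 CPM (SD, n = 3), a difference of -2.10 ± 0.11 on the log2 scale (SE). Bbc3, which encodes PUMA, was at -0.59, the receptor gene Eda2r at -0.63 and the small GTPase gene Rap2b at -0.54. Bax was counted in a locus merged with Dhdh and Gm45808, whose log2 fold change of -0.09 was not called. Of the 14 higher calls, 12 were also called higher against the chromosome median and 11 against the 50 nearest loci, and all 5 lower calls were called lower against both. In all, 13 of the list were higher and 8 lower against the 50 nearest loci, where 62.1% of all loci were called, and the calls gained were Tnfrsf10b (0.33) and Ercc5 (0.22), which were higher, and Plk2 (-0.31), Polk (-0.23) and the Bax locus (-0.16), which were lower. Gadd45a and Sesn2 are known to respond to other stress pathways besides p53.

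**Figure D5:**
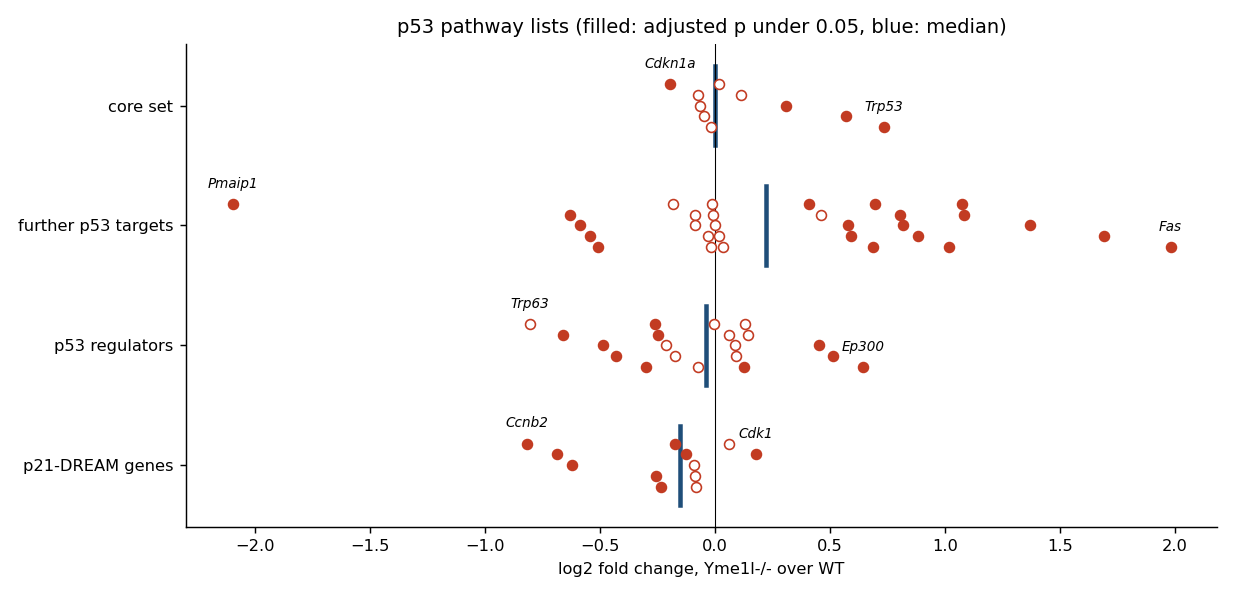
Log2 fold change of the tested genes of the core set and of 3 further lists (points, filled where the adjusted p was under 0.05, offset vertically for legibility, blue line: median of the list, lowest and highest gene named). The further targets reach from Pmaip1 at -2.10 to Fas at 1.98, while the core set stays between -0.19 and 0.74.

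Regulators of p53 also went both ways. Of 22 symbols, 20 were tested, and 4 were higher and 6 lower (33.6% and 34.1% of all loci), with a median of -0.04 against 0.00 for all loci. Against the 50 nearest loci, where 62.1% of all loci were called, 2 of the regulators were higher and 6 lower, and these included 1 of the 4 higher and 4 of the 6 lower calls. The coactivator Ep300 (0.65), the damage adaptor Trp53bp1 (0.52) and the phosphatase gene Ppm1d (0.46), itself a p53 target, were the highest. Ep300 lies on chromosome 15 and Ppm1d on chromosome 11, and against the chromosome median they were at 0.05 and 0.10 and not called, whereas Trp53bp1 stayed at 0.54. The damage kinase Atm (-0.66), Cdkn2a (-0.49), whose locus encodes the MDM2 inhibitor ARF beside p16, and the deubiquitinase gene Usp7 (-0.43, log2 fold changes) were the lowest calls. Against the chromosome median Atm was at -0.30, Cdkn2a at -0.39 and Usp7 at -0.41, and all stayed called. Cdkn2a fell from 222 ± 11.2 to 158.6 ± 7.67 CPM (SD, n = 3). Chek1 and Chek2, the checkpoint kinase genes, were at 0.06 and 0.09 and not called, but Chek1 was called higher against its chromosome median (0.42) and its 50 nearest loci (0.38). Crebbp (-0.29) and Daxx (-0.18) were called lower against their 50 nearest loci alone. Of the p53 paralogues, Trp63 had 5 to 20 counts per library and was not called, and Trp73 had at most 2 counts and was not tested. Rpl5 and Rpl11 have near-identical copies in the genome, so their values (-0.17 and -0.07, not called) are uncertain.

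Genes that p53 lowers through p21 and the DREAM repressor complex were examined last. Of 12, all tested, 1 was higher and 7 were lower (33.6% and 34.1% of all loci), with a median of -0.15 against 0.00 for all loci. Against the 50 nearest loci, where 62.1% of all loci were called, 2 of the list were higher and 8 lower, and these included 5 of the 7 lower calls and 0 of the 1 higher call. Cyclin B2 (Ccnb2, -0.82), cyclin E2 (Ccne2, -0.69) and Cdc20 (-0.62), an activator of the anaphase-promoting complex, were the lowest. Ccnb2 fell from 123.7 ± 2.02 to 70.3 ± 1.66 CPM (SD, n = 3). Against the chromosome median Ccnb2 was at -0.46, Ccne2 at -0.59 and Cdc20 at -0.52, so Ccnb2 was no longer the lowest. Cdk1 was at 0.18, Bub1 at -0.13 and Birc5 at -0.17 (log2 fold changes), and Ccna2 and Ccnb1 were not called. Birc5, on chromosome 11, was at -0.53 against the chromosome median and at -0.44 against its 50 nearest loci. The edgeR adjusted p of Bub1 was 0.0177, and it was above 0.05 under upper-quartile scaling (-0.07) and without WT replicate 3 or Yme1l-/- replicate 2 or 3. Among genes called otherwise or not at all without a reference, Cdk1 (-0.15), Ccna2 (-0.19) and Ccnb1 (-0.31) were called lower and Mcm5 (0.41) and Chek1 (0.38) higher against the 50 nearest loci.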

How the data were processed

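RNA of 3 WT and 3 Yme1l-/- MEF cultures was converted to stranded poly(A) libraries (paired-end). The authors mapped reads to mm10 (GRCm38) with HISAT2 2.0.4, assembled transcripts with StringTie 1.3.3 and compared genotypes with Cuffdiff 2.2.1. The deposited count table holds raw counts per locus, and overlapping genes were merged into 635 loci. The strand setting and the handling of multiply mapped fragments are not given in the sources used here. The deposited FPKM are 1 combined value per genotype. The authors' fold changes and p-values in that file were not used.

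The genotypes were compared with edgeR 4.0.16 under R 4.3.3 (filterByExpr with a minimum count of 10, TMM factors, glmQLFit with robust estimation, glmQLFTest, two-sided, Benjamini-Hochberg adjustment over 13867 loci, calls at 0.05). CPM were computed from these counts with TMM-scaled library sizes (33180867 to 49351107 counts per library before scaling). For the relative test, the median log2 fold change of the chromosome entered the offset of the Yme1l-/- libraries (13802 loci with a position on 20 chromosomes). Exon lengths and overlaps came from GENCODE vM21 and promoters from RefSeq (GRCm38.p6). The scripts were tested on simulated data. Precision given by depth covers counting error only, since PCR copies were not identified.

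The genes and lists were chosen with earlier results of these data known, and the lists were written from general knowledge. From each further list, calls of at least 2-fold and the 3 highest and 3 lowest of the other calls were named. Other genes were named for what they encode or where they lie, and Wrap53, Fxr2, Mpdu1 and Kdm6b after their values were seen, as were list members given as not called. Alternatives were RLE and upper-quartile scaling, DESeq2 1.42.0, other filters, a replicate block, leaving out each culture, and the 20, 50 or 100 nearest loci as reference. Usp10 and Tubb3 were not analysed here.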

Additional observations from a re-analysis of the deposited data

How the results depend on the processing

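Counts of calls stayed within 1.5 times the reported number under each alternative run: 8513 to 10051 of all loci, 3 to 5 of the 10 p53 genes, and relative to the chromosome median 4 to 7 of them. Trp53, Sesn1 and Ddb2 kept their calls under all 12 alternatives for the fold change, with ranges of 0.73 to 0.80, 0.52 to 0.63 and 0.25 to 0.37. Upper-quartile factors moved the median of all loci to 0.0552 and gave Ccng1 0.044, Aen 0.011 and Mdm2 0.17 (called). Over the 6 omissions of a culture Mdm4 went from -0.14 to 0.035, Ccng1 from -0.035 to 0.0061 and Phlda3 from -0.087 to 0.096, all uncalled. Relative to the chromosome median, Zmat3 went from -0.028 to 0.094 over these omissions and was at -0.0053 without a filter on low counts. With nearby loci as the reference, the 20 nearest gave Trp53 -0.24, Zmat3 -0.17 and Phlda3 -0.11, the 50 nearest gave Trp53 -0.037, Mdm2 0.066 and Zmat3 -0.17, and the 100 nearest gave Zmat3 -0.15. The log2 difference of the Mdm4 to Phlda3 ratio went from -0.24 to 0.12 over the same omissions. The cause of these moves was not tested. Replicate numbers did not pair the samples, since deviations of same-numbered cultures correlated at 0.144, -0.0939 and 0.048. A fit with a replicate block called 9794 loci and 4 of the p53 genes, and in it Phlda3 was called relative to its chromosome median, at 0.17, while the marker Col3a1 lost its call at -2.23. Ddb2, with 285 to 589 counts per library, was the member where depth limits precision most.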
